A study of Mus musculus with 12 samples.

Results

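The genes of the synaptic vesicle and of the SNARE machinery that fuses it with the membrane were compared between the hippocampi of MSN and ICR mice. A list of 40 genes was read from the array by gene symbol, and 39 of the 40 had a transcript cluster, the set of probes along 1 transcript, that the platform annotation pairs with that gene alone. Vamp2 had only a cluster annotated to several genes and was not analysed here. These 39 genes stand among 23410 clusters with a gene and 19938 genes with a cluster of their own. Where a gene had several clusters, the one with the highest mean was taken.

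RNA was taken from the hippocampi of 12 adult male mice, 6 MSN and 6 ICR. They were housed singly and about 10 weeks old, and each mouse had its own Affymetrix Mouse Gene 1.0 ST array. MSN (Madison) is an inbred strain with a manic phenotype, bred from ancestors selected for wheel running and then for maternal defense. ICR (hsd:ICR) is the outbred stock from which MSN was derived, and no drug treatment is named for either strain. Mice of both strains were anesthetized with isoflurane and decapitated on the day after their locomotor activity was observed. The study lists probe-site polymorphisms as a limit of the arrays, and it notes that MSN mice weighed less. The comparison asks which hippocampal transcripts differ in level between the manic strain and its ancestral stock.

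A neurotransmitter is stored in synaptic vesicles, which are filled, held in a reserve by synapsins, docked at the active zone and primed for release. RIM proteins and the Rab3 GTPases bring vesicles to the active zone, Munc13 proteins open syntaxin for assembly, and the SNAREs syntaxin, SNAP-25 and synaptobrevin zip together to fuse the membranes. Complexins clamp the assembled SNAREs, and synaptotagmins bind calcium and trigger fusion, which in the hippocampus underlies transmission at mossy fiber, Schaffer collateral and interneuron synapses.

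No member of this machinery passed the test between the strains. limma called 0 of 39 members at an adjusted p under 0.05, against 182 of the 23410 clusters (0.777%). At an unadjusted p under 0.05, 1 member was higher in MSN hippocampus, Synpr, where 5.18% of all clusters were. At the same threshold 7 members were lower, Rims1, Sv2c, Rab3b, Unc13c, Syngr1, Syt11 and Rab3a, where 7.5% of all clusters were. The values of the strains did not overlap for 2 members, Rims1 and Syt11, and for 1.44% of all clusters. A log2 fold change here is the mean of log2(intensity + 16) in MSN mice minus that in ICR mice, and intensities are not comparable between genes because each cluster has its own probes.

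The fold changes were small. They ranged from -0.28 to 0.22 on the log2 scale, and 26 of 39 members (66.7%) lay within 0.1 of 0, against 80.6% of all clusters. The 95% interval of the difference lay wholly within 0.25 of 0 for 27 members (69.2%), and for 83.3% of all clusters. Below 0 were 29 of 39 members (74.4%), with a median of -0.0433, against 54.5% of all clusters, with a median of -0.0079. The count below 0 moved with the scaling of the arrays, and so did the background. With each array scaled to the same median, 22 members were below 0, and the median of all clusters moved to 0.0171. After quantile normalization 27 members were below 0, and the median of all clusters was 0.0091. The median over the members stayed below 0 in both. The share of all clusters below 0 under these scalings is not given here, so the 2 counts have no background beside them. In bulk tissue, fewer cells of a type and less RNA per cell cannot be told apart.

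**Figure D1:**
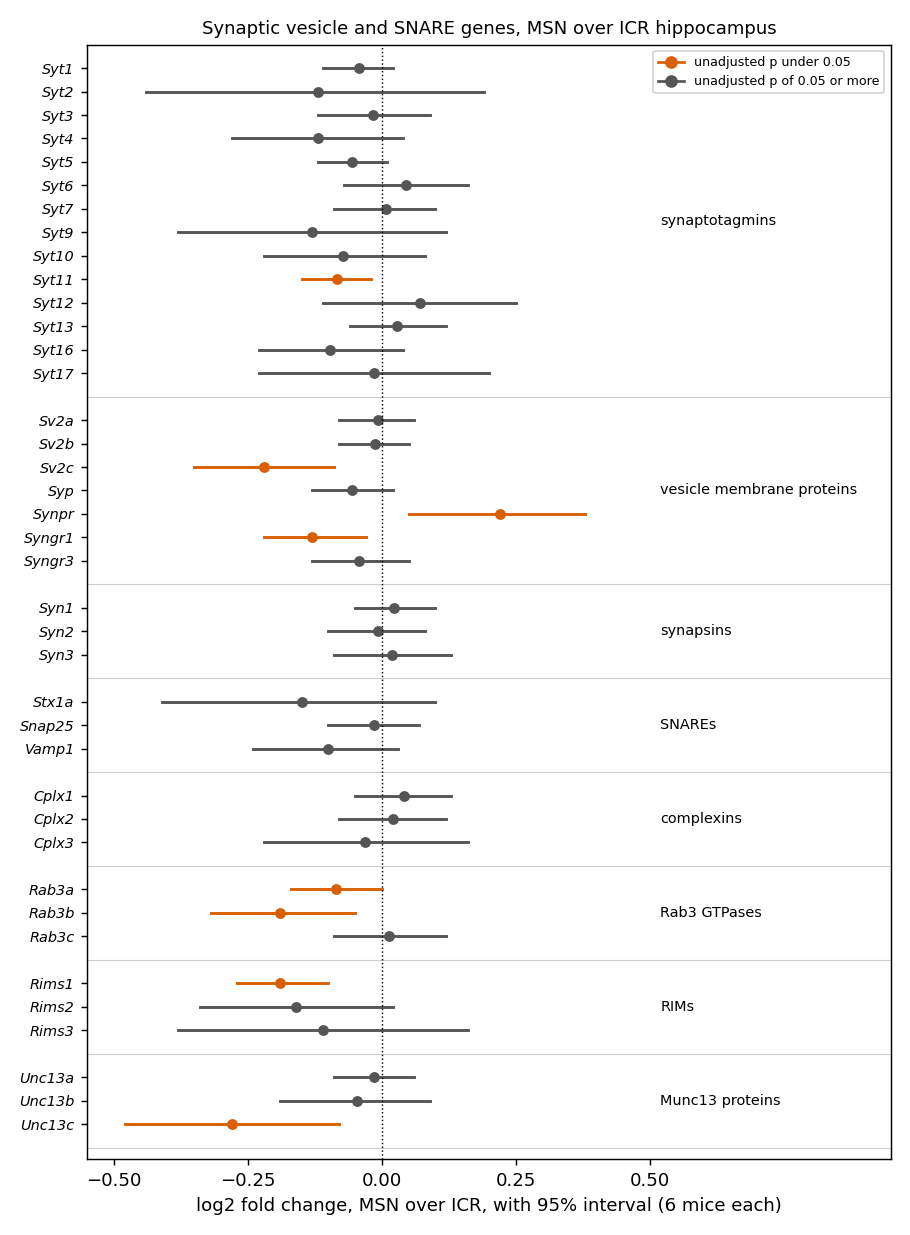
Log2 fold change of each of the 39 genes, MSN over ICR (x axis, log2 scale), with its 95% interval from limma over 6 mice per strain, in rows by role. The 8 genes in orange had an unadjusted p under 0.05, and 29 of the 39 points lie left of 0.

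One array stood apart from the other 11. In ICR replicate 3, genes known for high levels in the cerebellum were far above the other mice, on a list of 10 that was written after the values of this array had been seen. All 10 of the 10 were highest in this mouse, although Zic1 is also on the list for thalamus and habenula and Calb1 on that for hippocampal principal neurons. Gabra6, the GABA receptor subunit of cerebellar granule cells, had 4983 intensity units in ICR replicate 3, against 47.2 to 88.7 in the other 11 mice. Cbln3, a granule cell partner of cerebellin, had 4586 there, against 150 to 225. Car8, a Purkinje cell gene, had 3371 there, against 296 to 415. The summed level of the list was 5763 to 7747 in MSN mice and 6417 to 26752 in ICR mice, with ICR replicate 3 at the top, and none of the 10 genes was at or near 0 in that mouse.

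Of the 39 members, 10 were higher in ICR replicate 3 than in any other mouse, and 8 were lower than in any other. Syt2, a fast calcium sensor known from the hindbrain and from some interneurons, had 809 there, against 361 to 465 in the other 11 mice. Syt9, another calcium sensor, had 512 there, against 271 to 381. Unc13c, the Munc13 form known for its cerebellar expression, had 1151 there, against 634 to 937. Vamp1, the synaptobrevin of hindbrain and spinal synapses, had 3358 there, against 2508 to 2875. Also highest there were Rims3 at 988 (550 to 902 in the other 11 mice), Rims2 at 1817 (1169 to 1464) and Syt4 at 2674 (1870 to 2366). The same held for Syt12 at 667 (463 to 650), Sv2c at 662 (485 to 629) and Rims1 at 3393 (2650 to 3223). The lowest values included Synpr at 1256, against 1379 to 1880 in the other 11 mice, and Syt17 at 1388, against 1575 to 2192. How far the cerebellar signal accounts for these levels was not tested, and the log2 fold change of each member named below is also given without this mouse. Without it, 0 members were called (0.824% of all clusters), 2 members were higher at an unadjusted p under 0.05 (5.21% of all clusters) and 7 were lower (8.61% of all clusters). Below 0 were then 30 of 39 members (76.9%), against 55.7% of all clusters.

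**Figure D2:**
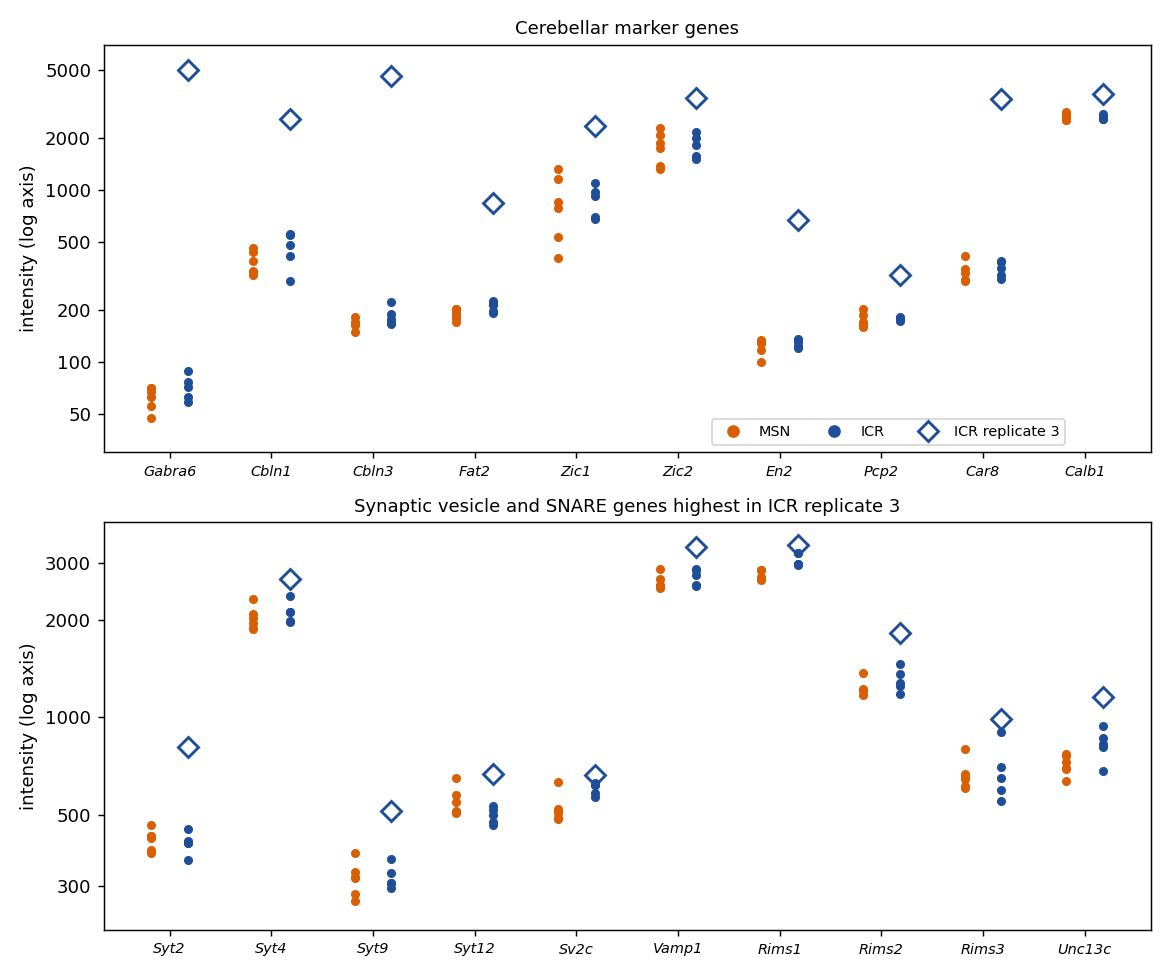
Intensity (log axis) of 10 cerebellar marker genes (top) and of the 10 vesicle and SNARE genes that were highest in ICR replicate 3 (bottom), 1 point per mouse, MSN in orange left of ICR in blue, with ICR replicate 3 as an open diamond. Gabra6 is at 4983 in that mouse and at most 88.7 in the others, while Sv2c and Rims1 lie close to the other ICR mice.

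Markers of hippocampal principal neurons were present on every array. Their summed level over 13 genes was 21509 to 24144 in MSN mice and 20010 to 23205 in ICR mice, with ICR replicate 3 lowest, and 11 of the 13 were above 0 in log2 fold change, 4 of them at an unadjusted p under 0.05. Of all 23410 clusters, 10652 were above 0 and 5.18% were higher at that threshold. Markers of neocortex and subiculum, 9 measured, summed to 9444 to 11243 in MSN mice and 9758 to 11395 in ICR mice, with MSN replicate 5 and ICR replicate 1 at the top of their strains. All 9 were below 0 in log2 fold change, with a median of -0.069, and none had an unadjusted p under 0.05. Markers of choroid plexus and ependyma, 9 measured, summed to 9611 to 22970 in MSN mice and 7999 to 22998 in ICR mice. These 9 were all above 0, with a median of 0.3, and none had an unadjusted p under 0.05. Of 9 astrocyte markers, 3 were lower and 1 higher at an unadjusted p under 0.05, where 7.5% and 5.18% of all clusters were. The lower ones were Gfap at -0.3, Aqp4 at -0.23 and Slc1a2 at -0.11, and the higher one was Aldh1l1 at 0.19. The astrocyte median was -0.0701, with sums of 31168 to 34026 in MSN mice and 33571 to 35441 in ICR mice. The 9 pan-neuronal markers include Snap25, itself a member, so this list is not independent of the members. Of the 9, 1 was lower and 2 higher at that threshold, with a median of -0.0148, which is the value of Snap25. Their sums were 44927 to 47786 in MSN mice and 45387 to 48898 in ICR mice. The lower one was Stmn2, a regulator of neuronal microtubules, at -0.17 with no overlap of the strains (adjusted p = 0.0570 from limma). The higher ones were Nefm at 0.15 and Nefl at 0.0906, both with overlap (adjusted p = 0.292 and 0.386 from limma). Slc1a2, Tac1 and Pdgfra on the other marker lists also had no overlap, as did 1.44% of all clusters. The other 7 lists, of GABAergic interneurons, thalamus and habenula, striatum, the oligodendrocyte lineage, microglia and vessels, had medians from -0.04 to 0.0829. Above 0 were 7 of 7 markers of oligodendrocyte precursors, 7 of 8 of mature oligodendrocytes, 7 of 9 of microglia and 6 of 8 of vessels. For striatum 5 of 7 were above 0, and for GABAergic interneurons and for thalamus and habenula 3 of 10 each. Called genes on the marker lists were Tac1, on the striatum list, at -0.58 and Pdgfra, on the list of oligodendrocyte precursors, at 0.26. No gene of the 13 lists had a mean level below 16 in either strain, and their part in the results was not tested. Array medians were 373 to 389.

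The promoters of the members were read from RefSeq (GRCm38.p6) to show what the genes share beyond their role. Of the 39, 29 matched. A gene was counted if any of its annotated starts had the motif. The 29 members had 39 starts and the 15563 array genes had 19116, so members had somewhat more starts per gene. In the 250 bases before the start, the GC box, GGGCGG on either strand, was found in 24 of the 29 (82.8%), against 49.4% of 15563 array genes. The TATA box, TATAAA on either strand, was in 2 of the 29 (6.9%), against 12.5%, and these were Rab3b and Sv2b. The cAMP response element TGACGTCA was in 1, Syn1 (3.45%, against 2.34%), and the E box CACGTG was in 4 (13.8%, against 8.12%). GC content had a median of 60.8% over the starts of members and 56.8% over those of array genes. A match is a description of letters, not a bound site, and the part of GC content in these shares was not tested.

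Printed here are the promoters of the 4 members with the lowest P-values and of Synpr, the member with the highest log2 fold change, each 5′ to 3′ on the gene's strand, with every GC box in capitals (GGGCGG, or CCGCCC where it lies on the other strand). They are Rims1 at chr1:22806159-22806408 on the minus strand, Sv2c at chr13:96132578-96132827 on the minus strand, Rab3b at chr4:108878820-108879069 on the plus strand, Unc13c at chr9:73969038-73969287 on the minus strand and Synpr at chr14:13284530-13284779 on the plus strand, where Synpr has 2 annotated starts and the one further upstream is shown.
Rims1: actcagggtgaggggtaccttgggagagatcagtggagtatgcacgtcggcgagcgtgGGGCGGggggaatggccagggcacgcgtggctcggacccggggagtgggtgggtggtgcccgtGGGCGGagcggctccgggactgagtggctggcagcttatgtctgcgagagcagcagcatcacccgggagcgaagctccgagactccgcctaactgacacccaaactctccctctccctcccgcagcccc
Sv2c: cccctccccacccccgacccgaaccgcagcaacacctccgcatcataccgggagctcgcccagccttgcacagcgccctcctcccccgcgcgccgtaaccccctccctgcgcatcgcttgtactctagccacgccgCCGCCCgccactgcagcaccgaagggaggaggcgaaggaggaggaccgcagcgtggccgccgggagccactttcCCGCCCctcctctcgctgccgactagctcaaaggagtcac
Rab3b: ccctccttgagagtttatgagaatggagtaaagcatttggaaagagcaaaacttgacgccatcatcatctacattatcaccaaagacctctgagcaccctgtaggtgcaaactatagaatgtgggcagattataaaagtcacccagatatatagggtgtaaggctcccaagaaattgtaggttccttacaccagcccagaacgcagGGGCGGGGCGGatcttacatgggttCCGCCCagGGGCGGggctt
Unc13c: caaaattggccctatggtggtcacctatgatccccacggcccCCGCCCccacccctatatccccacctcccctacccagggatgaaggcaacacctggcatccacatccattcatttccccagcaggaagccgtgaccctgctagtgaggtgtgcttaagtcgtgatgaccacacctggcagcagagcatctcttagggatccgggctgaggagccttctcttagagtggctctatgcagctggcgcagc
Synpr: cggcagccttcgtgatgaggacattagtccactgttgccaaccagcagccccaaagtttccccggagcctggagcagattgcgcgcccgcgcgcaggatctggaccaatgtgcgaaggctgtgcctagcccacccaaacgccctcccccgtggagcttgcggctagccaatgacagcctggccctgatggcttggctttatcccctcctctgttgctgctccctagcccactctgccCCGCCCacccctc
Rab3b has 4 GC boxes close to its start, some of them overlapping, in a window with 48.8% GC. Rims1 and Sv2c have 2 GC boxes each in windows with 68.0% and 70.8% GC. Unc13c and Synpr have 1 each.

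Among the active zone genes, all 3 RIMs were below 0. Rims1, the scaffold that ties Rab3 on vesicles to Munc13 and to calcium channels, had the lowest P-value of the 39. It ranged from 2650 through a median of 2708 to 2857 in MSN mice, and from 2944 through 3098 to 3393 in ICR mice. Every MSN mouse was below every ICR mouse, and the ratio of MSN to ICR was 0.880. The log2 fold change was -0.19 (standard error 0.0416, 95% interval -0.27 to -0.10, adjusted p = 0.0574 from limma). Its exact permutation test gave p = 0.00216, two-sided and unadjusted, the smallest that 6 against 6 mice allow. Any gene without overlap of the strains has this value, so it adds nothing to the separation. Without ICR replicate 3 the log2 fold change was -0.16 (adjusted p = 0.0792), and the strains still did not overlap. Rims1 passed the adjusted threshold in 4 of 11 other settings, with adjusted p values of 0.0207 to 0.182 over the 11.

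Rims2, the second large RIM, had a lowest, median and highest intensity of 1169, 1215 and 1371 in MSN mice and of 1177, 1320 and 1817 in ICR mice. The strains overlapped, and the log2 fold change of -0.16 (95% interval -0.34 to 0.02) became -0.0793 without ICR replicate 3. Rims3, a short RIM that lacks the Rab3-binding end, had 604, 651 and 798 in MSN mice and 550, 676 and 988 in ICR mice. Its log2 fold change of -0.11 became -0.0196 without ICR replicate 3. The highest values of Rims2 and Rims3 within MSN were both in MSN replicate 5. Within MSN, this mouse had the highest sums of neocortex and subiculum markers and of GABAergic interneuron markers. It also had the lowest sums of hippocampal principal neuron and mature oligodendrocyte markers, and the part of these in the result was not tested.

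The 3 Munc13 genes were also below 0, with unequal sizes. Unc13c had the largest negative log2 fold change among the 39. Its intensity was 634 at the lowest, 713 at the median and 768 at the highest in MSN mice, against 682, 843 and 1151 in ICR mice. The ICR values were higher in all but ICR replicate 2, which lay among the MSN values. The log2 fold change was -0.28 (standard error 0.0952, 95% interval -0.48 to -0.08, adjusted p = 0.224 from limma), or -0.20 without ICR replicate 3 (adjusted p = 0.236). The array has 7 clusters for Unc13c alone, and all 7 were below 0, from -0.28 to -0.13, with ICR replicate 3 highest in each. The clusters read the same mice, so they are not independent of each other. Apart from the brightest, they had unadjusted p values of 0.134 to 0.344 from limma, and their values without ICR replicate 3 are not given here. Unc13a, the main Munc13 of excitatory synapses, had a log2 fold change of -0.0142 (95% interval -0.09 to 0.06) by its brightest cluster, or -0.0150 without ICR replicate 3, and -0.0734 and 0.0343 by the other 2 clusters. Unc13b had -0.0469 (95% interval -0.19 to 0.09), and -0.0958 without ICR replicate 3.

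Of the Rab3 GTPases, which mark vesicles bound for the active zone, Rab3b and Rab3a were below 0 at an unadjusted p under 0.05 and Rab3c was not. Rab3b ranged from 1147 through a median of 1178 to 1222 in MSN mice, and from 1173 through 1373 to 1552 in ICR mice. The 6 MSN values lay close together, and ICR replicates 2 and 3 were among them while the other 4 ICR mice were above. The log2 fold change was -0.19 (standard error 0.0630, 95% interval -0.32 to -0.05, adjusted p = 0.219 from limma), and its exact permutation p was 0.0281, two-sided. Without ICR replicate 3 the log2 fold change was -0.22 (adjusted p = 0.108). Rab3a, the most studied Rab3 of synapses, ranged from 3380 through 3690 to 3824 in MSN mice and from 3643 through 3852 to 4076 in ICR mice, with overlap. Its log2 fold change was -0.0857 (adjusted p = 0.381 from limma), and -0.0901 without ICR replicate 3, at an unadjusted p of 0.0515. Rab3c had 0.0125 (95% interval -0.09 to 0.12), or -0.0162 without ICR replicate 3.

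The vesicle membrane proteins held both the largest positive value and a large negative one. Synpr encodes synaptoporin, a relative of synaptophysin known from mossy fiber terminals in rodents. It ranged from 1661 through a median of 1777 to 1880 in MSN mice, and from 1256 through 1519 to 1877 in ICR mice. All ICR mice except replicate 2 were below every MSN mouse. Within ICR, replicate 2 also had the highest and replicate 3 the lowest sum of hippocampal principal neuron markers, and the part of this in the result was not tested. The log2 fold change was 0.22 (standard error 0.0753, 95% interval 0.05 to 0.38, adjusted p = 0.241 from limma). It was 0.16 without ICR replicate 3 (adjusted p = 0.292), and 0.28 without ICR replicate 2 (adjusted p = 0.0462), the only left-out mouse with which it passed.

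Sv2c, a form of the transporter-like SV2 protein that also serves as a receptor for botulinum toxin, ranged from 485 through a median of 509 to 629 in MSN mice, and from 565 through 617 to 662 in ICR mice. The other 5 MSN mice were below every ICR mouse, and MSN replicate 1 was within the ICR range. The log2 fold change was -0.22 (standard error 0.0597, 95% interval -0.35 to -0.09, adjusted p = 0.116 from limma). Without MSN replicate 1 it was -0.27 (adjusted p = 0.0159), and without ICR replicate 3 it was -0.20 (adjusted p = 0.163). The more general forms Sv2a and Sv2b had log2 fold changes of -0.0081 (95% interval -0.08 to 0.06) and -0.0135 (95% interval -0.08 to 0.05), or -0.0095 and -0.0167 without ICR replicate 3.

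Syngr1, a synaptogyrin of the vesicle membrane, ranged from 3843 through a median of 4032 to 4348 in MSN mice and from 4062 through 4441 to 4650 in ICR mice. The strains overlapped at ICR replicate 2, and the log2 fold change was -0.13 (adjusted p = 0.235 from limma), or -0.12 without ICR replicate 3. Syngr3 had -0.0433, or -0.0761 without that mouse, at an unadjusted p of 0.0420 from limma. Syp, synaptophysin, a main protein of the vesicle membrane, had 7762, 7916 and 8382 at the lowest, median and highest in MSN mice, against 7895, 8331 and 8809 in ICR mice. This gave a log2 fold change of -0.0563 (95% interval -0.13 to 0.02), or -0.0715 without ICR replicate 3.

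Of the 14 synaptotagmins, 10 were below 0 and 4 above. Syt11, a synaptotagmin that does not bind calcium, ranged from 5900 through a median of 6251 to 6358 in MSN mice, and from 6490 through 6536 to 6724 in ICR mice. All MSN mice were below all ICR mice although the ratio was only 0.943. On the log2 scale the difference was -0.0841 (standard error 0.0298, adjusted p = 0.248 from limma), and the value without ICR replicate 3 was -0.0804. The exact permutation p of Syt11 was 0.00216, two-sided, which the lack of overlap fixes. Syt1, the main calcium sensor of fast release in forebrain, had 11103, 11560 and 11693 at the lowest, median and highest in MSN mice, against 11558, 11754 and 12163 in ICR mice. The difference was -0.0432 on the log2 scale (95% interval -0.11 to 0.02), or -0.0498 without ICR replicate 3.

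The values of several synaptotagmins depended on ICR replicate 3. Syt2 had a log2 fold change of -0.12 with that mouse and 0.0380 without it. Syt9 had -0.13 with it and -0.0170 without it, and Syt4, a form known for its induction by activity, had -0.12 with it and -0.0615 without it. In the other direction, Syt12 had 0.0703 with it and 0.14 without it, at an unadjusted p of 0.0491 from limma. Syt10 had -0.0732 with it and -0.12 without it, and Syt17 had -0.0142 with it and -0.0984 without it. In the same way, Syt6 had 0.0448 with it and 0.0760 without it. Syt13 had 0.0279 with it and 0.00671 without it, Syt3 had -0.0173 and -0.0350, and Syt7 had 0.0069 and -0.00243. Syt16 and Syt5 moved less, with -0.0964 and -0.0564 with that mouse and -0.0850 and -0.0626 without it.

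**Figure D3:**
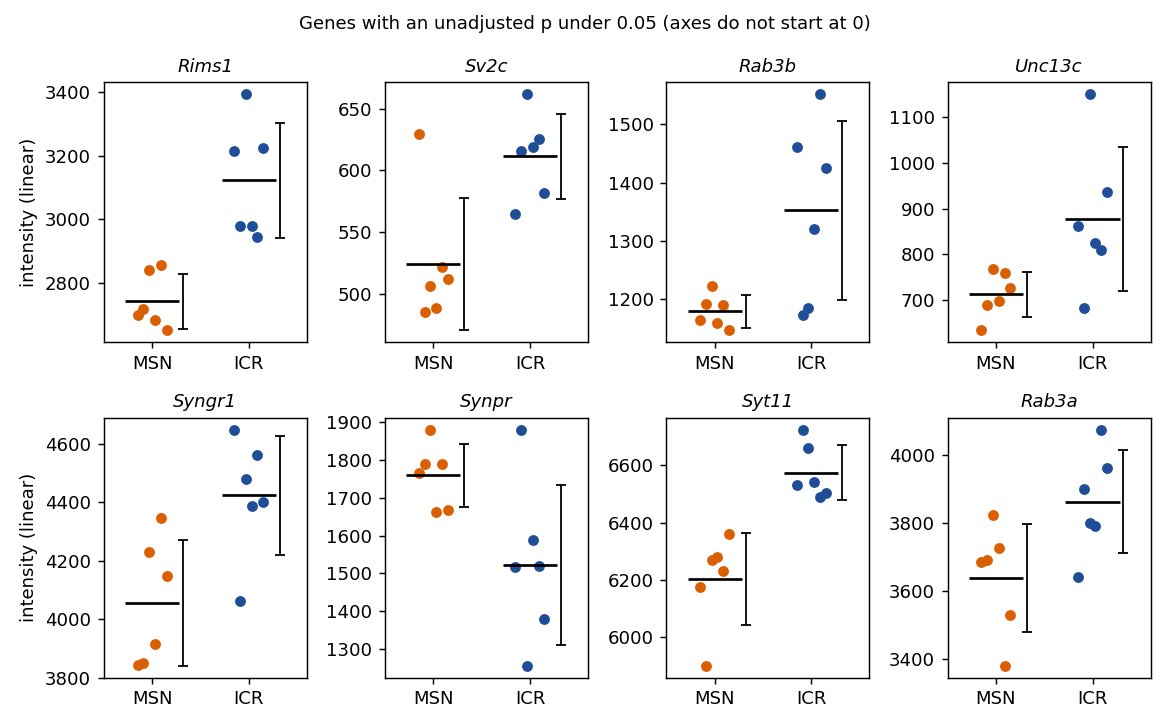
Intensity (linear scale, axes not starting at 0) of the 8 genes with an unadjusted p under 0.05, 1 point per mouse, MSN in orange left of ICR in blue, with the mean as a line and the SD as a bar (6 mice each). Rims1 and Syt11 show no overlap between strains, Sv2c has 1 MSN mouse at 629 within the ICR range, and the ICR values of Rab3b and Synpr are spread more widely than the MSN values.

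The SNAREs themselves were all below 0, none at an unadjusted p under 0.05 with all 12 mice. Snap25, the SNARE of the presynaptic membrane that botulinum toxin A cuts, had 11453, 11870 and 12460 at the lowest, median and highest in MSN mice, against 11080, 12210 and 12651 in ICR mice. Its log2 fold change was -0.0148 (95% interval -0.10 to 0.07), or -0.0126 without ICR replicate 3, and it was 0.00486 after quantile normalization and 0.0116 with each array scaled to the same median. Stx1a, syntaxin 1A, had 594, 659 and 957 in MSN mice and 630, 778 and 949 in ICR mice. This gave a log2 fold change of -0.15, with a 95% interval of -0.41 to 0.10, and -0.12 without ICR replicate 3. The highest mice were MSN replicate 5 in one strain and ICR replicates 1 and 3 in the other. Without MSN replicate 5 the value was -0.25, at an unadjusted p of 0.0215 and an adjusted p of 0.316 from limma. Vamp1 had -0.10 (95% interval -0.24 to 0.03), or -0.0534 without ICR replicate 3.

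Synapsins, which tether vesicles to each other, and complexins lay within 0.1 of 0 throughout. Syn1, Syn2 and Syn3 had log2 fold changes of 0.0219, -0.0066 and 0.0194, and no bound of their 95% intervals was more than 0.13 from 0. Cplx1, Cplx2 and Cplx3 had 0.0415, 0.0212 and -0.0311, with bounds at most 0.22 from 0. Syn2 was lowest in ICR replicate 3, and without that mouse its value was -0.0397. The other values without it were 0.02 for Syn1, 0.0130 for Syn3, 0.0547 for Cplx1, 0.0142 for Cplx2 and -0.00165 for Cplx3.

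**Figure D4:**
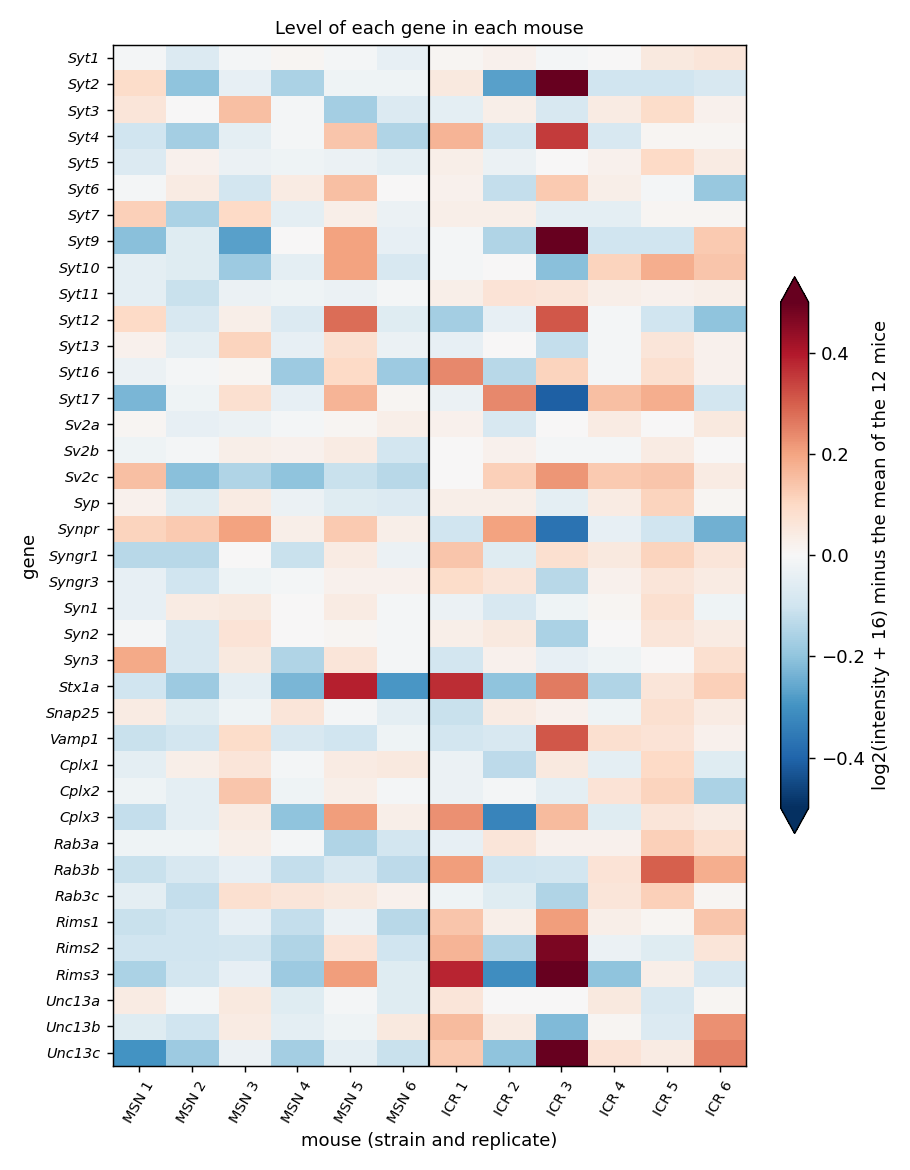
Deviation of each of the 39 genes (rows) in each mouse (columns, MSN left of ICR) from its mean over the 12 mice, on the log2(intensity + 16) scale, red above and blue below, with the color range ending at 0.5. ICR replicate 3 holds 10 of the highest and 8 of the lowest values, and Rims1 is blue in all 6 MSN mice.

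MSN is inbred and ICR is outbred, so the spread between mice was compared as well. The SD of log2(intensity + 16) was larger in ICR for 29 of 39 members (74.4%), against 11697 of all 23410 clusters. Its median over the members was 0.0751 in MSN mice and 0.0838 in ICR mice. Without ICR replicate 3 it was larger in ICR for 21 of 39 members (53.8%), against 45.5% of all clusters. The fit of absolute deviations from the strain mean called 0 of 39 members, and 3 had an unadjusted p under 0.05, Rab3b, Rims3 and Syt7, where 8.2% of all clusters had.

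Rab3b had the highest ratio of SDs, with an SD of 0.0332 in MSN mice and 0.163 in ICR mice, a ratio of 4.92 of ICR to MSN (adjusted p = 0.385 from limma on deviations). Without ICR replicate 3 its SD in ICR was 0.153, so the wide spread was present without that mouse. For Rims3 the SD was 0.141 in MSN mice and 0.328 in ICR mice, and 0.268 in ICR without replicate 3. For Syt7, a slow calcium sensor, the SD was 0.103 in MSN mice and 0.0362 in ICR mice, the reverse order. The ratio was over 2 for 7 members (17.9%, against 9.6% of all clusters) and the ratio of MSN to ICR was over 2 for 3 members (7.69%, against 8.91%). Without ICR replicate 3 the first count was 3 members (7.69%, against 7.96% of all clusters), Rab3b, Synpr and Unc13b, and the second was 5 (12.8%, against 12.3%). Syt2, Rims2, Rims3 and Unc13c were thus among the 7 only with that mouse. For Syt2 the SD was 0.104 in MSN mice and 0.405 in ICR mice, but 0.111 in ICR without that mouse.

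**Figure D5:**
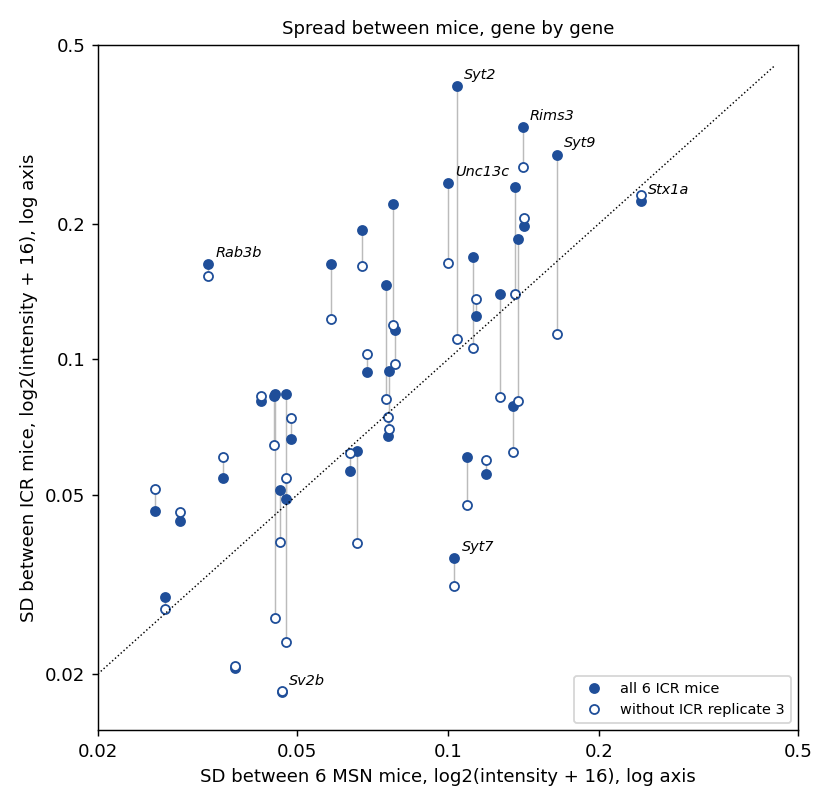
SD between mice of each of the 39 genes on the log2(intensity + 16) scale, MSN on the x axis and ICR on the y axis (both log axes), filled points with all 6 ICR mice and open points without ICR replicate 3, with a dotted line of equal SD. Above the line lie 29 of 39 filled points and 21 of 39 open points, and Rab3b stays far above it in both.

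Other genes of release and recycling were read in the same way, 124 measured of 130 listed. limma called 0 of the 124, 5 were higher and 6 lower at an unadjusted p under 0.05 (5.18% and 7.5% of all clusters), and 66 (53.2%, against 54.5% of all clusters) were below 0 with a median of -0.00671. Values of the strains did not overlap for 2 of them, Ppfia1 and Dnm2, and for 1.44% of all clusters, so these counts were near the background. Without ICR replicate 3, 0 were called, 4 were higher, 6 were lower and 71 (57.3%, against 55.7%) were below 0. Ppfia1, the active zone adaptor liprin-alpha 1, had 426, 438 and 470 at the lowest, median and highest in MSN mice, against 482, 494 and 514 in ICR mice. Its log2 fold change was -0.16 (95% interval -0.23 to -0.08, adjusted p = 0.0533 from limma), and without ICR replicate 3 the adjusted p was 0.0574. Dnm2, a dynamin that pinches off endocytic vesicles, had 1174, 1205 and 1214 in MSN mice and 1103, 1135 and 1169 in ICR mice. The difference of 0.0757 on the log2 scale had an adjusted p of 0.286.

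By group, the other SNARE proteins had 9 of 22 below 0, with Ykt6, a SNARE of membrane traffic, at -0.11 and Stx16, a Golgi syntaxin, at 0.0848. Genes of SNARE assembly, priming and calcium sensing had 14 of 26 below 0, with Cadps2, a priming factor of dense-core vesicles, at -0.19 and Doc2b, a calcium sensor of spontaneous release, at 0.20. Cadps2 was highest in ICR replicate 3, at 1172, and without that mouse its value was -0.12, while that of Doc2b was 0.175. The other active zone and Rab3 cycle genes had 12 of 22 below 0, with Rab27b, a GTPase of secretory granules, at 0.13. Vesicle membrane and filling genes had 17 of 27 below 0, with Slc18a2, the vesicular monoamine transporter, at 0.22 and Scamp5, a carrier membrane protein, at -0.12. Endocytosis genes all lay within 0.1 of 0, with 14 of 27 below 0 and Cltb, a clathrin light chain, at -0.0759.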

How the data were processed

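The authors made the deposited intensity values, 1 per transcript cluster and array on a linear scale, with PLIER and GC-bin background correction in Affymetrix Power Tools 1.12.0. The submitters' processing notes and the study's methods give this; scan dates and batches are not given in the sources used here. The platform annotation pairs 23410 of 35556 clusters with a gene, 21789 of them with a single gene.

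For the tests, log2(intensity + 16) was fitted with strain as the only term in limma 3.58.1 (lmFit and eBayes) in R 4.3.3, over all 23410 clusters, with Benjamini-Hochberg adjustment and calls at an adjusted p under 0.05. The spread was fitted in the same way on absolute deviations from the strain mean. Exact permutation tests used all 924 splits of the 12 arrays. Groups of 6 values were examined with Dixon's test at 95%. The fits were tested on simulated data with independent normal noise in each cluster. These data held no array like ICR replicate 3, so they do not show how such an array affects the fits. The number of arrays limits the precision, and log2(intensity + 16) understates the change of dim genes.

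The members and lists were chosen with earlier results of these data known. Named by rule are members with an unadjusted p under 0.05 or no overlap, the highest and lowest of each role, those with an unadjusted p under 0.05 in the spread fit or with several clusters, the core fusion genes, and the 2 other genes with the smallest p of each list. The remaining members are named outside this rule. Members highest or lowest in ICR replicate 3, and the cerebellar list, were named after their values were seen. Alternatives were untransformed intensities, pseudocounts of 1 and 64, 2 scalings, eBayes with trend and robust options, array weights, 4 choices of clusters, a block for the replicate number, and each array left out in turn. Vamp2 was not analysed here.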

Additional observations from a re-analysis of the deposited data

Results flagged for a closer look

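Each strain's 6 values of the members and of the named other genes were examined with Dixon's test, 98 groups in all, and 11 had 1 mouse past the 95% limit. Chance gives about 1 in 20 such groups. The value given with each gene is the gap from that mouse to the next, divided by the range of the 6.

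ICR replicate 3 was the mouse in 5 of the 11 groups. It was high for Syt2 at 809, against 361 to 452 in the other ICR mice (0.725), for Syt12 at 667, against 463 to 531 (0.626), and for Cadps2 at 1172, against 798 to 907 (0.669). It was low for Syn2 at 4161, against 4664 to 4865 (0.729), and for Syngr3 at 2191, against 2450 to 2575 (0.691). This is the mouse with the high cerebellar marker levels.

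MSN replicate 5 was the mouse in another 5, high in each. Stx1a was at 957, against 594 to 704 in the other MSN mice (0.647), Rims2 at 1371, against 1169 to 1224 (0.713), and Rims3 at 798, against 604 to 667 (0.643). Syt10 was at 1178, against 898 to 987 (0.653), and Slc18a2 at 255, against 212 to 219 (0.815). This mouse had the highest MSN sums of neocortex and subiculum markers, 11243, and of GABAergic interneuron markers, 18050. Its sums of hippocampal principal neuron markers, 21509, and of mature oligodendrocyte markers, 22218, were the lowest in MSN. The last group was Sv2c, with MSN replicate 1 at 629, against 485 to 521 (0.724). What sets these mice apart was not tested.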

How the results depend on the processing

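The count of members called was 1 instead of 0 with untransformed intensities (Syt11, adjusted p = 0.0432), and 1, Rims1, with a pseudocount of 64, with trend and robust options, with only the clusters above the median mean and with array weights. It was 0 to 1 with an array left out, Sv2c without MSN replicate 1 and Synpr without ICR replicate 2. Of the other release genes 2 were called with untransformed intensities (Ppfia1 and Dnm2), 1 with a pseudocount of 64, 1 above the median mean, 1 with array weights, and 0 to 1 with an array left out (1 without MSN replicate 1, Ppfia1). Over all clusters 279 were called with a pseudocount of 64, 315 with array weights and 91 to 210 with an array left out, fewest without MSN replicate 4, against 182. Calls were 71 higher and 111 lower, but 131 and 109 after quantile normalization and 115 and 89 with each array scaled to the same median.

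The replicate number as a block gave 42 called clusters and 0 members. Same-numbered mice did not clearly deviate together (correlations of -0.126 to 0.125, and 1 of 6 matched its own number best). Low correlations cannot exclude a pairing with a weak effect, and the labels do not say what the numbers stand for. The sign turned for genes near 0: Snap25 (0.00486 after quantile normalization, 0.0116 with each array scaled to the same median), Unc13a (0.0121) and Syn2 (0.0197) (both with that scaling). With an array left out, Syt7 ranged from -0.0155 to 0.0388, Syn2 from -0.0397 to 0.00931, Cplx3 from -0.10 to 0.011 and Rab3c from -0.0162 to 0.0381. The median over the members stayed below 0 in every setting, from -0.0569 with array weights to -0.0170 with each array scaled to the same median. The SD was larger in ICR for 23 of 39 members with that scaling.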
